A study of Mus musculus with 8 samples.

Results

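Imprinted genes outside the Dlk1-Dio3 region were followed in mouse embryonic stem cells (ESCs) and in primordial germ cell-like cells (PGCLCs) with and without the AP-2 transcription factor TFAP2C. The set is a list of 40 known imprinted genes chosen by name, and 37 of them, among 18193 genes in all, were measured on the array by at least 1 probe set that names a single gene. Each gene was read from the probe set that was brightest on average across the 8 arrays. Of the 37 genes, 17 are listed as paternally expressed, 19 as maternally expressed and Gnas as either, depending on the transcript. H19, Zrsr1 and Slc22a3 were not measured in this way, H19 because its probe set also names the microRNA gene Mir675. Snrpn rests on 1 probe set, since its others also name Snurf.

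There were 4 groups of 2 arrays each, labelled as control or Tcfap2c knockout ESCs and control or knockout PGCs. All cells carried the Blimp1mVenus reporter. The controls were the parental ESC lines with floxed Tfap2c alleles on both copies, and the knockout lines, written Tfap2c−/− here, came from them by transient transfection with a pGK-Cre plasmid. The cells labelled PGC are PGCLCs, obtained from ESCs through epiblast-like cells and then by culture with BMP4, BMP8b, SCF, LIF and EGF, and they were sorted for Blimp1mVenus before RNA was taken. The study used 2 lines and the submitters call the 2 samples of a group biological replicates, but no label says which sample came from which line, and the p-values measure only the spread between these samples. In each list of values below sample 1 comes before sample 2, and levels are on the log2 scale as deposited, so that a difference of 1 is a doubling. Levels of different genes come from different probes and were ranked only to choose some of the genes described.

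Imprinted genes are transcribed mainly from the maternal or the paternal copy, because methylation laid down in the egg or the sperm marks the copies differently. Many of them act on fetal growth and the placenta, and they lie in clusters that share a control region. Primordial germ cells erase these marks on their way to becoming eggs or sperm, while ESCs in culture often lose or gain them unevenly from line to line. The arrays add up transcripts of both copies, so a level here says nothing about which copy was active. In RNA from sorted cell populations, fewer cells expressing a gene and less RNA per cell cannot be told apart.

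The arrays were alike in scale, with medians between 3.47 and 3.55. Correlations between the 2 samples of a group lay between 0.980 and 0.989. All 8 pluripotency markers were above the median on every array. With the control genotype, all 6 measured germ cell markers rose from ESCs to PGCLCs without overlap of the samples, as did 25.3% of all genes. Of the 6 markers, 4 passed limma at an adjusted p under 0.05, where 4.64% of all genes passed as higher. In PGCLCs all 6 were lower with the knockout than without it, again with no overlap, as were 27.9% of all genes. Of the 6 markers, 2 passed limma, where 1.8% of all genes passed as lower. Control PGCLC sample 2 had the highest mean over the 24 poly-A spike-in probe sets, 7.91, followed by 7.44 and 6.72 in the Tfap2c−/− PGCLCs and 5.42 to 5.91 in the others, and its Gapdh 3′ minus 5′ signal was 0.95 against 0.31 to 0.52. Tfap2c was at 7.88 and 9.14 in control and 7.28 and 6.47 in Tfap2c−/− ESCs, and 9.84 and 10.29 in control and 8.52 and 8.85 in Tfap2c−/− PGCLCs, lower in the knockout of each cell type without overlap, though whether its probes lie in the deleted part is not given in the sources used here. For the deletion itself the study shows PCR genotyping of the ESC lines and immunofluorescence for TFAP2C in control and Tfap2c−/− ESCs. Calls that rest on control PGCLC sample 2 are given with and without it for the genes described array by array. Of the imprinted genes 21 were above the array median on all 8 arrays and 8 were below it on all 8 (Asb4, Calcr, Dlx5, Osbpl5, Peg10, Slc22a2, Usp29 and Zim1), where differences are compressed toward the background.

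The promoters of the 3 genes that passed the test between Tfap2c−/− and control PGCLCs, and that of Plagl1, are shown because TFAP2C binds DNA and because ZFP57, a protein that keeps imprints, reads a short motif of its own. Each sequence is the 250 bases before a RefSeq transcript start, 5′ to 3′ on the strand of the gene, in the build GRCm38.p6. Capitals mark matches, on either strand, to the AP-2 motif GCCNNNGGC and the ZFP57 motif TGCCGC, which do not overlap here. Peg12 lies at chr7:62464511-62464760 on the minus strand and Cd81 at chr7:143052500-143052749 on the plus strand. Calcr has 2 listed starts, and the one with a match, at chr6:3763624-3763873 on the minus strand, is shown. Plagl1 lies at chr10:13090582-13090831 on the plus strand.
Peg12: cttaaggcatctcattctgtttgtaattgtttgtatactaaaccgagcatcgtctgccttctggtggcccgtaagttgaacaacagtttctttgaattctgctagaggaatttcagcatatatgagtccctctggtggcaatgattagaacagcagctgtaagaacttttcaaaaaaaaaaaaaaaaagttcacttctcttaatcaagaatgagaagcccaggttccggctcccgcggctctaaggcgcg
Cd81: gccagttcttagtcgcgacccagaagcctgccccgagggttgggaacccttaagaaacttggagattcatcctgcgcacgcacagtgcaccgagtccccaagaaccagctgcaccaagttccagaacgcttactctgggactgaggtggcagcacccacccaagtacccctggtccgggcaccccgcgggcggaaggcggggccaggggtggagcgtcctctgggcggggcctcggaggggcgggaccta
Calcr: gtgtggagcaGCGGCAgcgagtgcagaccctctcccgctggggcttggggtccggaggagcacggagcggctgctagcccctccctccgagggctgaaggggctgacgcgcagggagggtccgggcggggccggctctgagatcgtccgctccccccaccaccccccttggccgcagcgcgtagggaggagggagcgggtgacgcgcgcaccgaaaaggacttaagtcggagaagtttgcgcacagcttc
Plagl1: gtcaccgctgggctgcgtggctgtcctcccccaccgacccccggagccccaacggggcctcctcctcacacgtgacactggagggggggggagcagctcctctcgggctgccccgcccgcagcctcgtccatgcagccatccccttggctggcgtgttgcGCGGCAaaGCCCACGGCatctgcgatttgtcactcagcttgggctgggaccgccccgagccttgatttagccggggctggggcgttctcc
Neither motif occurred in the Peg12 and Cd81 windows, Calcr held 1 ZFP57 match, and Plagl1 held 1 match to each, the AP-2 match 82 bases before the start. Promoters were listed for 30 of the 37 genes. The AP-2 motif was in 10 of their 47 windows (21.3%), those of Igf2, Mest, Osbpl5, Phlda2, Plagl1, Ppp1r9a, Ube3a and Zim1, against 4509 of all 32851 windows (13.7%). The ZFP57 motif was in 8 windows (17.0%) against 8.68% of all windows. Some genes have several windows. Those of Mest at chr6:30737800 and chr6:30737803 overlap and hold the same matches to both motifs, which the counts take separately. The windows of the imprinted genes had a median GC content of 60.8% against 52.4%, and these counts describe letters only.

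In control cells 5 of the 37 imprinted genes rose from ESCs to PGCLCs and 1 fell. The 5 were the fetal growth factor gene Igf2, its clearing receptor gene Igf2r, the FRAT family gene Peg12, the zinc finger gene Peg3 and the cell cycle inhibitor gene Cdkn1c (p57), and the lower gene was the tetraspanin gene Cd81. By the same test, limma with an adjusted p under 0.05, 8.37% of all genes passed, 4.64% higher and 3.72% lower. The 2 groups did not overlap in 12 of the 37 that were higher and 5 that were lower, where 25.3% and 28.5% of all genes did so, and 6 of the 37 differed by more than 1.5, as did 3.49% of all genes. Of the paternally expressed genes 15 of 17 had a difference above 0, with a median of 0.66, and of the maternally expressed genes 11 of 19, with a median of 0.08. Over all genes 8393 of 18193 differences were above 0, with a median of −0.03. The parental classes are as listed and were not measured in these cells, and no test compared them.

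Igf2, the growth factor expressed from the paternal copy, was at 4.65 and 4.49 in control and 4.41 and 4.16 in Tfap2c−/− ESCs, and 9.33 and 7.43 in control and 9.45 and 8.11 in Tfap2c−/− PGCLCs. Every PGCLC sample lay above every ESC sample, and in PGCLCs of both genotypes sample 1 exceeded sample 2. In controls the difference was 3.81 (SE 0.61, limma adjusted p = 0.0122) and in Tfap2c−/− cells 4.49 (SE 0.61, adjusted p = 0.0163). The control call was lost without control ESC sample 1 or 2 (adjusted p = 0.0756 and 0.0713), with differences of 3.89 and 3.73, and it held without control PGCLC sample 1 (2.86) or 2 (4.76). The Tfap2c−/− call was lost without Tfap2c−/− ESC sample 1 or 2 or PGCLC sample 1 (adjusted p = 0.0616, 0.069 and 0.0895). The other probe set for Igf2 lay between 2.40 and 3.14 on all arrays and showed a control difference of −0.11. With the mean of both probe sets the differences were 1.85 in controls and 2.31 in Tfap2c−/− cells, and both passed.

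Igf2r, which is expressed from the maternal copy and takes up IGF2 for degradation, was at 6.94 and 7.14 in control and 6.94 and 6.70 in Tfap2c−/− ESCs, and 8.20 and 8.00 in control and 7.59 and 7.59 in Tfap2c−/− PGCLCs. The 4 groups of values were ordered control PGCLC, Tfap2c−/− PGCLC and then ESC, with no PGCLC sample inside the ESC range. The difference was 1.06 in controls (SE 0.16, limma adjusted p = 0.00981) and 0.77 in Tfap2c−/− cells (adjusted p = 0.0575). The control call was lost without control ESC sample 1 (0.96, adjusted p = 0.0756) or control PGCLC sample 1 (0.96, adjusted p = 0.0613), and held without control PGCLC sample 2 (1.16). Airn, the paternal antisense transcript that silences Igf2r in cis, stayed low, between 2.84 and 3.75 in all groups except Tfap2c−/− PGCLCs, where it was at 4.28 and 3.82. Its differences of 1.12 from Tfap2c−/− ESCs (adjusted p = 0.0755) and 0.61 from control PGCLCs (adjusted p = 0.316) did not pass. Slc22a2, an organic cation transporter gene of the same cluster, lay between 2.57 and 3.38 throughout.

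Peg12, a paternally expressed FRAT family gene of the Prader-Willi region, was near the array background in ESCs, at 2.29 and 2.58 in controls and 2.51 and 2.39 in Tfap2c−/− cells. It was at 4.93 and 5.34 in control and 4.05 and 3.55 in Tfap2c−/− PGCLCs. The 2 PGCLC groups did not overlap with each other or with ESCs. The increase was 2.70 in controls (SE 0.23, limma adjusted p = 0.00149), a call that held under all alternatives that kept the gene, which the one without dim genes did not (2.50 without control PGCLC sample 2), and 1.35 in Tfap2c−/− cells (SE 0.23, adjusted p = 0.0332). The latter was lost without either control ESC sample (adjusted p = 0.0623 and 0.0618), either Tfap2c−/− ESC sample (0.0982 and 0.097) or either Tfap2c−/− PGCLC sample (0.152 and 0.0568), with differences between 1.10 and 1.60.

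The other genes of the Prader-Willi region did not pass the test in any comparison. Ndn, a growth-suppressing MAGE family gene, was at 6.30 and 6.87 in control and 6.64 and 5.82 in Tfap2c−/− ESCs, and 8.28 and 7.38 in control and 8.28 and 7.54 in Tfap2c−/− PGCLCs. All PGCLC samples lay above all ESC samples, with differences of 1.25 in controls (adjusted p = 0.117) and 1.68 in Tfap2c−/− cells (adjusted p = 0.0874). Magel2, a related gene, had smaller differences in the same direction, 0.66 (adjusted p = 0.0512) and 0.69 (adjusted p = 0.0782). Mkrn3, a ubiquitin ligase gene, had differences of 0.22 and −0.19, and Snrpn, a splicing protein gene, of 0.33 and 0.15. Ube3a, the maternally expressed ubiquitin ligase gene of the region, was at 8.82 and 8.64 in control and 8.78 and 8.88 in Tfap2c−/− ESCs, and 8.72 and 8.91 in control and 8.90 and 8.93 in Tfap2c−/− PGCLCs, with differences of 0.08 to 0.10 in the knockout and cell type comparisons.

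Peg3, a paternally expressed zinc finger gene, was at 7.50 and 8.90 in control and 7.41 and 9.003 in Tfap2c−/− ESCs, and at 10.64 and 11.06 in control and 10.23 and 10.51 in Tfap2c−/− PGCLCs. PGCLCs were higher than ESCs in both genotypes without overlap, and among ESCs sample 2 was above sample 1 by more than 1 in both genotypes. The difference was 2.65 in controls (SE 0.56, limma adjusted p = 0.0314) and 2.16 in Tfap2c−/− cells (adjusted p = 0.103). The control difference was 1.95 without control ESC sample 1 (adjusted p = 0.155), 2.86 and 2.44 without control PGCLC sample 1 or 2 (0.0958 and 0.165), and the call was also lost without Tfap2c−/− PGCLC sample 1 or 2 (0.0552 and 0.0549). With the mean of its 5 probe sets it was 1.32 (adjusted p = 0.0578). The 3 probe sets above the background showed control differences of 2.65, 2.68 and 1.56. The neighbouring genes Usp29 and Zim1 were below the array median on all arrays, with differences between −0.02 and 0.10 in both genotypes.

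**Figure D1:**
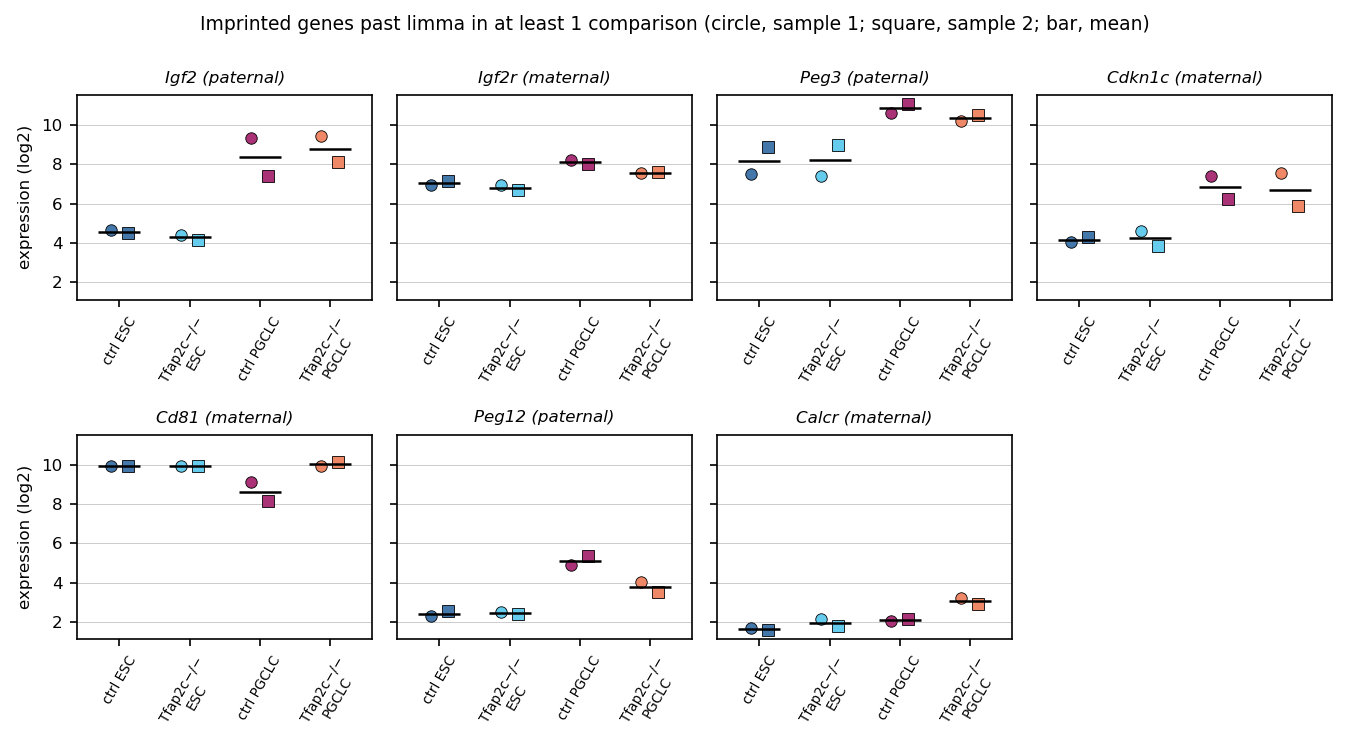
Levels (log2, vertical axis) of the 7 imprinted genes that passed limma in at least 1 comparison, in the 4 groups on the horizontal axis; circles are sample 1, squares sample 2 and bars group means. Igf2, Igf2r, Peg3 and Cdkn1c separate PGCLCs from ESCs, Peg12 also separates control PGCLCs (4.93 and 5.34) from Tfap2c−/− PGCLCs (4.05 and 3.55), and Cd81 is lowest in control PGCLCs (9.13 and 8.15).

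Cdkn1c, a maternally expressed cyclin-dependent kinase inhibitor gene of the Kcnq1 region, was at 4.05 and 4.30 in control and 4.62 and 3.87 in Tfap2c−/− ESCs, and 7.43 and 6.25 in control and 7.55 and 5.86 in Tfap2c−/− PGCLCs. All PGCLC samples were above all ESC samples. The difference was 2.66 in controls (SE 0.58, limma adjusted p = 0.0341) and 2.46 in Tfap2c−/− cells (adjusted p = 0.0787). The control call was lost without control ESC sample 1 or 2 (2.54 and 2.79, adjusted p = 0.162 and 0.123) and without control PGCLC sample 1 or 2 (2.07 and 3.26, adjusted p = 0.155 and 0.0681).

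Phlda2, the neighbour of Cdkn1c that restrains placental growth, went the other way in level without passing the test. It was at 8.62 and 8.69 in control and 8.78 and 7.29 in Tfap2c−/− ESCs, and 7.10 and 7.02 in control and 7.23 and 6.65 in Tfap2c−/− PGCLCs. The difference was −1.59 in controls (adjusted p = 0.0627) and −1.10 in Tfap2c−/− cells (adjusted p = 0.229). Kcnq1ot1, the long antisense RNA from the paternal copy that silences genes of this region, was at 4.70 and 3.84 in control and 4.51 and 5.96 in Tfap2c−/− ESCs, and 5.48 and 6.46 in control and 6.09 and 6.97 in Tfap2c−/− PGCLCs. PGCLCs were above ESCs of the same genotype, by 1.70 (limma adjusted p = 0.12) and 1.30 (adjusted p = 0.276). For Slc22a18 the differences between PGCLCs and ESCs were −0.34 in controls and −0.36 in Tfap2c−/− cells, neither past the test. Its other, dimmer probe set differed by −1.69 and −1.12.

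Within the region Tfap2c−/− ESC sample 2 stood apart from the other ESCs. Against the mean of the control ESCs, Kcnq1ot1 was higher in it by 1.68, while Phlda2 differed by −1.36, the transporter gene Slc22a18 by −0.70, Cdkn1c by −0.30, and Cd81 and Tssc4 by 0.02 and 0.12. Tfap2c−/− ESC sample 1 differed by 0.23 for Kcnq1ot1 and 0.12 for Phlda2. The next 2 probe sets of Kcnq1ot1 by level were at 5.63 and 4.96 in sample 2 and between 2.46 and 4.45 in the other 3 ESC samples. This is a single sample, and no test was made. Ascl2, Kcnq1 and Osbpl5, the remaining genes of the region, stayed within 0.61 of the control ESC mean on every array.

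**Figure D2:**
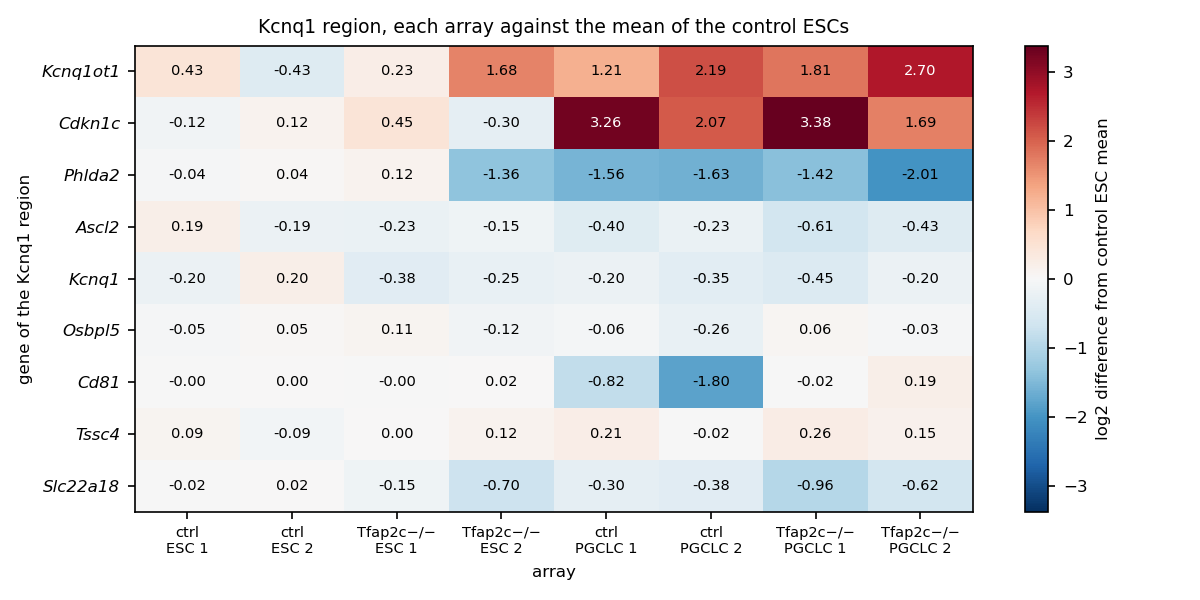
Each cell gives the log2 difference of a Kcnq1 region gene (rows) on an array (columns) from the mean of the 2 control ESC samples, red for higher and blue for lower. In PGCLCs Cdkn1c lies 1.69 to 3.38 above that mean and Phlda2 at −1.42 to −2.01, Cd81 is low in the control PGCLCs alone (−0.82 and −1.80), and Tfap2c−/− ESC sample 2 has Kcnq1ot1 at 1.68 and Phlda2 at −1.36.

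In Tfap2c−/− cells 3 of the 37 genes rose from ESCs to PGCLCs, Igf2, Peg12 and Calcr, and none fell, where 2.32% of all genes passed, 1.35% higher and 0.973% lower. The 2 groups did not overlap in 21 higher and 4 lower genes of the 37, against 18.5% and 29.5% of all genes, and 6 of the 37 differed by more than 1.5, against 2.18% of all genes. The 5 genes that passed in controls but not here or the other way round were not shown to differ between genotypes, since no imprinted gene passed the test of that difference. Paternally expressed genes again had 15 of 17 differences above 0, with a median of 1.12, and maternally expressed genes 13 of 19, with a median of 0.10. Over all genes 7450 of 18193 differences were above 0, with a median of −0.06.

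Calcr, the calcitonin receptor gene listed as maternally expressed near Peg10 and Sgce, was below the array median throughout. It was at 1.72 and 1.60 in control and 2.17 and 1.78 in Tfap2c−/− ESCs, and 2.06 and 2.16 in control and 3.24 and 2.91 in Tfap2c−/− PGCLCs, where both samples exceeded all the others. The difference between cell types was 1.10 in Tfap2c−/− cells (SE 0.17, limma adjusted p = 0.026) and 0.45 in controls (adjusted p = 0.161). The former call was lost without control ESC sample 1 or 2 (adjusted p = 0.0532 and 0.0541), Tfap2c−/− ESC sample 2 (0.0789) or Tfap2c−/− PGCLC sample 1 or 2 (0.122 and 0.0539), with differences between 0.91 and 1.27. Of its neighbours, Ppp1r9a, which encodes the actin-binding protein neurabin, differed by 0.89 in controls (limma adjusted p = 0.0819) and 0.94 in Tfap2c−/− cells (adjusted p = 0.12). The next 2 probe sets of Ppp1r9a by level differed by 1.40 and 1.89 in controls and by 1.39 and 1.93 in Tfap2c−/− cells. Its 2 dimmest differed by 0.66 and 0.14 in controls and by 0.76 and −0.27 in Tfap2c−/− cells. The sarcoglycan gene Sgce differed by 0.86 and 1.37, and neither gene passed the test. Peg10, Asb4 and Dlx5 were below the array median on all arrays.

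**Figure D3:**
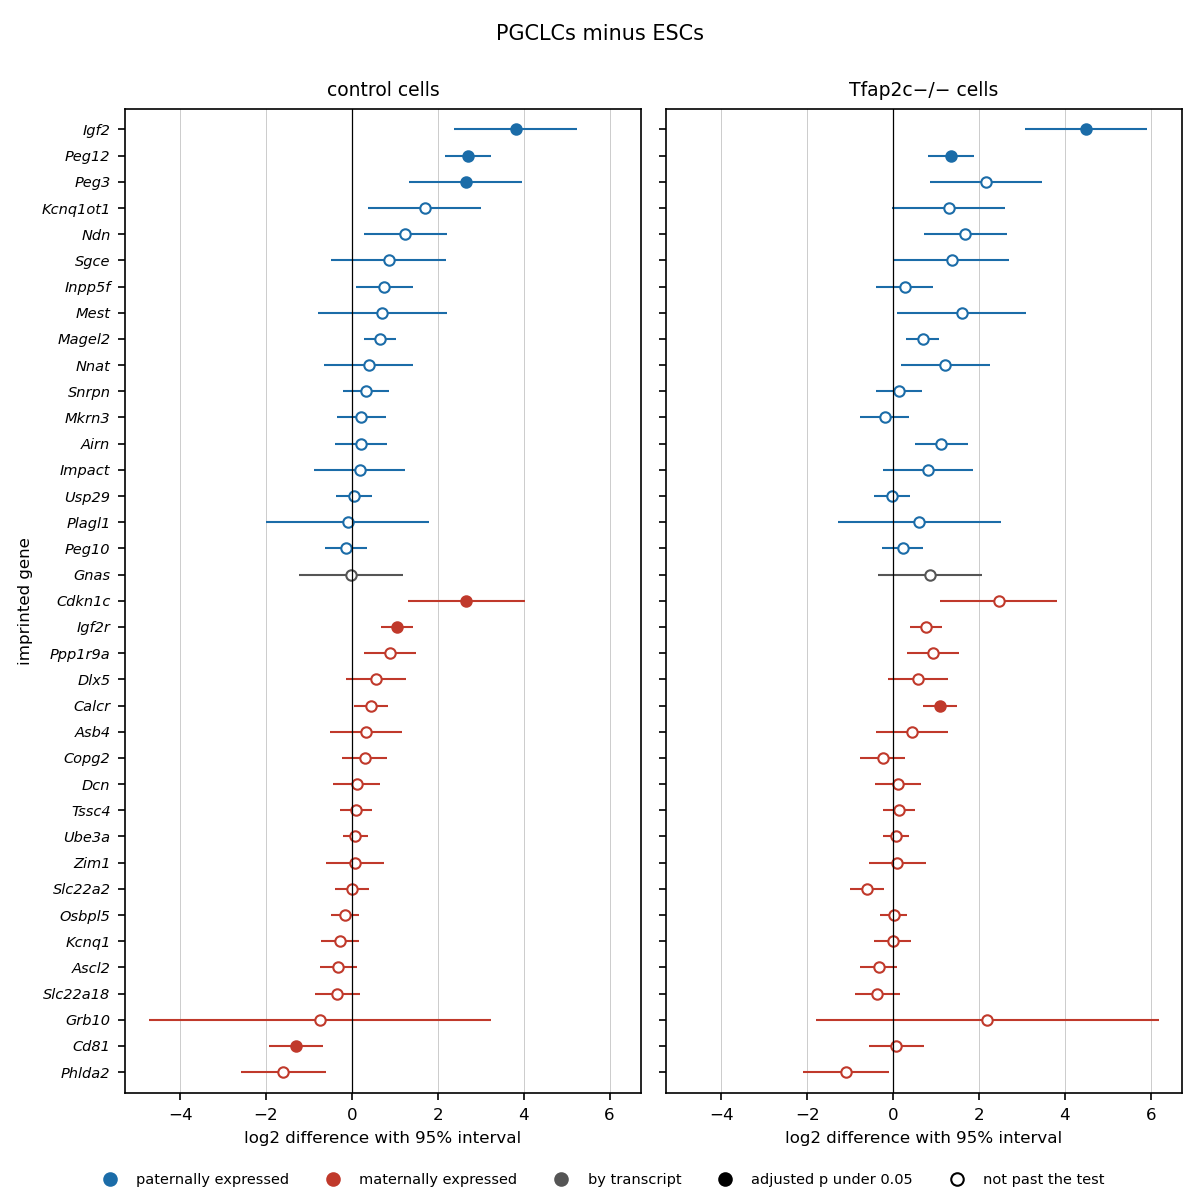
Log2 differences between PGCLCs and ESCs (horizontal axis, with 95% limma intervals) for the 37 imprinted genes in control cells (left) and Tfap2c−/− cells (right); blue is paternal, red maternal and grey Gnas, and filled points passed limma. Paternally expressed genes lie mostly right of 0 in both panels (medians 0.66 and 1.12), maternally expressed genes on both sides (medians 0.08 and 0.10).

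Between Tfap2c−/− and control PGCLCs 3 imprinted genes changed. Cd81 and Calcr were higher and Peg12 was lower in the knockout. Among all genes 3.09% passed (1.29% higher, 1.8% lower), and 3 of 37 genes is too small a count to set the list apart from the rest. Grb10 and Plagl1 had larger differences, of 4.27 and 2.59, which did not pass. The median over the imprinted genes was 0.06, against −0.04 over all genes. The 2 genotypes did not overlap in 16 of the 37, 7 higher and 9 lower in Tfap2c−/− PGCLCs, where 19.5% and 27.9% of all genes did so.

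Cd81, which encodes a widely expressed tetraspanin of the cell surface, was within 0.02 on all ESC arrays, at 9.95 and 9.95 in controls and 9.95 and 9.96 in Tfap2c−/− cells. It was at 9.13 and 8.15 in control and 9.93 and 10.14 in Tfap2c−/− PGCLCs. The control PGCLCs were thus the only low group. The difference between control PGCLCs and control ESCs was −1.31 (SE 0.27, limma adjusted p = 0.0291) and that between Tfap2c−/− and control PGCLCs 1.40 (SE 0.27, adjusted p = 0.0393). Both comparisons use the same control PGCLC samples and are not independent. Without control PGCLC sample 2, the array with the high poly-A signal, they were −0.82 and 0.91, and the knockout difference no longer passed (adjusted p = 0.0675). Without control PGCLC sample 1 they were −1.80 and 1.89, and both passed. Leaving out any of the other 6 arrays also ended the knockout call, with adjusted p between 0.0605 and 0.228, and the cell type call was lost without control ESC sample 1 or 2 (0.13 and 0.123) or Tfap2c−/− PGCLC sample 1 or 2 (0.0508 and 0.0509), and with only the control arrays fitted (0.0785). In Tfap2c−/− cells PGCLCs and ESCs differed by 0.08 (adjusted p = 0.9). Tssc4, the gene next to Cd81, lay between 6.70 and 7.05 on all arrays.

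Peg12 was lower in Tfap2c−/− PGCLCs than in control PGCLCs, from the values given above, with a difference of −1.33 (SE 0.23, limma adjusted p = 0.0269). The call was lost without control ESC sample 1 or 2 (adjusted p = 0.051 both times), control PGCLC sample 2 (−1.13, adjusted p = 0.182) or Tfap2c−/− PGCLC sample 2 (−1.08, adjusted p = 0.173). In ESCs, where it was near background, the difference was 0.02. Calcr was higher in Tfap2c−/− PGCLCs by 0.96 (SE 0.17, adjusted p = 0.0295). Its call was lost without control ESC sample 1 or 2 (adjusted p = 0.0584 and 0.0586), control PGCLC sample 1 or 2 (0.112 and 0.159) or Tfap2c−/− PGCLC sample 1 or 2 (0.13 and 0.0766), with differences between 0.80 and 1.13. Both genes shared these control PGCLC samples with the cell type comparison. Fitted on the 4 PGCLC arrays alone, none of the 3 genes passed (adjusted p = 0.144 for Cd81, 0.102 for Peg12 and 0.079 for Calcr).

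Grb10, which encodes an adaptor that dampens insulin and IGF receptor signalling, differed widely between the control samples of both cell types. It was at 4.31 and 9.02 in control and 8.33 and 7.64 in Tfap2c−/− ESCs, and 3.56 and 8.27 in control and 10.13 and 10.23 in Tfap2c−/− PGCLCs. Control sample 1 was low and control sample 2 was high in both cell types, by 4.70 and 4.72, and among 18193 genes Grb10 was the only one with control sample 1 more than 3 below control sample 2 in both (0.0055%). Single control groups had such a gap, in either direction, in 6 genes (0.033%) for ESCs and 5 genes (0.0275%) for PGCLCs. Grb10 was the only gene of the list among them. Tfap2c−/− groups had such a gap in 12 genes (0.066%) for ESCs and 5 genes (0.0275%) for PGCLCs, none of them on the list. Slc38a4, an imprinted gene outside the list, had samples 3.17 apart in Tfap2c−/− ESCs. The Tfap2c−/− PGCLCs were above all other samples, and the difference from controls was 4.27 (SE 1.71, limma adjusted p = 0.284). It was 1.91 without control PGCLC sample 1 and 6.63 without control PGCLC sample 2, and passed the test in neither case. In ESCs the Tfap2c−/− samples lay between the controls, with a difference of 1.32, which was −1.03 without control ESC sample 1. The gap stands on 1 of 3 probe sets, the other two lying between 2.26 and 4.26 on all arrays, and of these 1 was at 2.41 and 2.81 in control and 3.58 and 4.26 in Tfap2c−/− PGCLCs. The mean of the 3 gave a knockout difference of 1.92 in PGCLCs (limma adjusted p = 0.21). Alternative promoters of Grb10 are used from different parental copies in different tissues, and the array does not separate their transcripts here.

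Plagl1, a paternally expressed zinc finger gene with antiproliferative activity, was at 5.22 and 7.63 in control and 7.63 and 8.99 in Tfap2c−/− ESCs, and 5.82 and 6.83 in control and 9.48 and 8.35 in Tfap2c−/− PGCLCs. Tfap2c−/− samples were the higher in PGCLCs without overlap, and in ESCs Tfap2c−/− sample 1 lay level with control sample 2. Control sample 1 was below control sample 2 in both cell types, as for Grb10. Grb10 and Plagl1 were the 2 of 37 imprinted genes (5.41%) with control samples more than 1 apart in the same direction in both cell types, against 36 of all genes (0.198%). The knockout difference was 2.59 in PGCLCs (SE 0.82, limma adjusted p = 0.164; 3.10 without control PGCLC sample 2) and 1.88 in ESCs, where it was 0.68 without control ESC sample 1. The probe set is of a kind that can pick up related sequences, and the other two gave differences of 0.49 and 0.28 in PGCLCs and 0.59 and 0.26 in ESCs. The mean of the 3 gave 1.12 in PGCLCs and 0.91 in ESCs, past the test in neither.

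Other paternally expressed genes had differences in PGCLCs that did not pass. Nnat, a membrane protein gene of developing neurons, was at 3.14 and 2.50 in control and 3.10 and 3.52 in Tfap2c−/− ESCs, and 3.57 and 2.85 in control and 5.17 and 3.88 in Tfap2c−/− PGCLCs, the last being above all others (1.31, adjusted p = 0.197). Mest, which encodes a hydrolase-like protein of mesoderm, was at 7.28 and 6.66 in control and 6.88 and 7.35 in Tfap2c−/− ESCs, and 8.65 and 6.71 in control and 9.39 and 8.05 in Tfap2c−/− PGCLCs. Its genotypes overlapped in PGCLCs (1.04, adjusted p = 0.527), and the difference was 0.064 without control PGCLC sample 2 and 2.01 without sample 1. Impact, a translation regulator gene, was at 9.05 and 8.07 in control and 8.07 and 7.95 in Tfap2c−/− ESCs, and 9.44 and 8.04 in control and 8.82 and 8.82 in Tfap2c−/− PGCLCs, and its groups overlapped too (0.083 in PGCLCs, −0.62 without control PGCLC sample 2). Among the maternally expressed genes, Igf2r differed by −0.51 (limma adjusted p = 0.162), the coatomer gene Copg2 by −0.57 (adjusted p = 0.279) and Slc22a18 by −0.45 (adjusted p = 0.409). The other probe set of Slc22a18 differed by 0.06. Inpp5f, an inositol phosphatase gene with a paternal isoform, differed by −0.64 (adjusted p = 0.346), and Gnas by 0.66 (adjusted p = 0.636), with a range of −0.32 to 0.66 over its 5 probe sets.

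**Figure D4:**
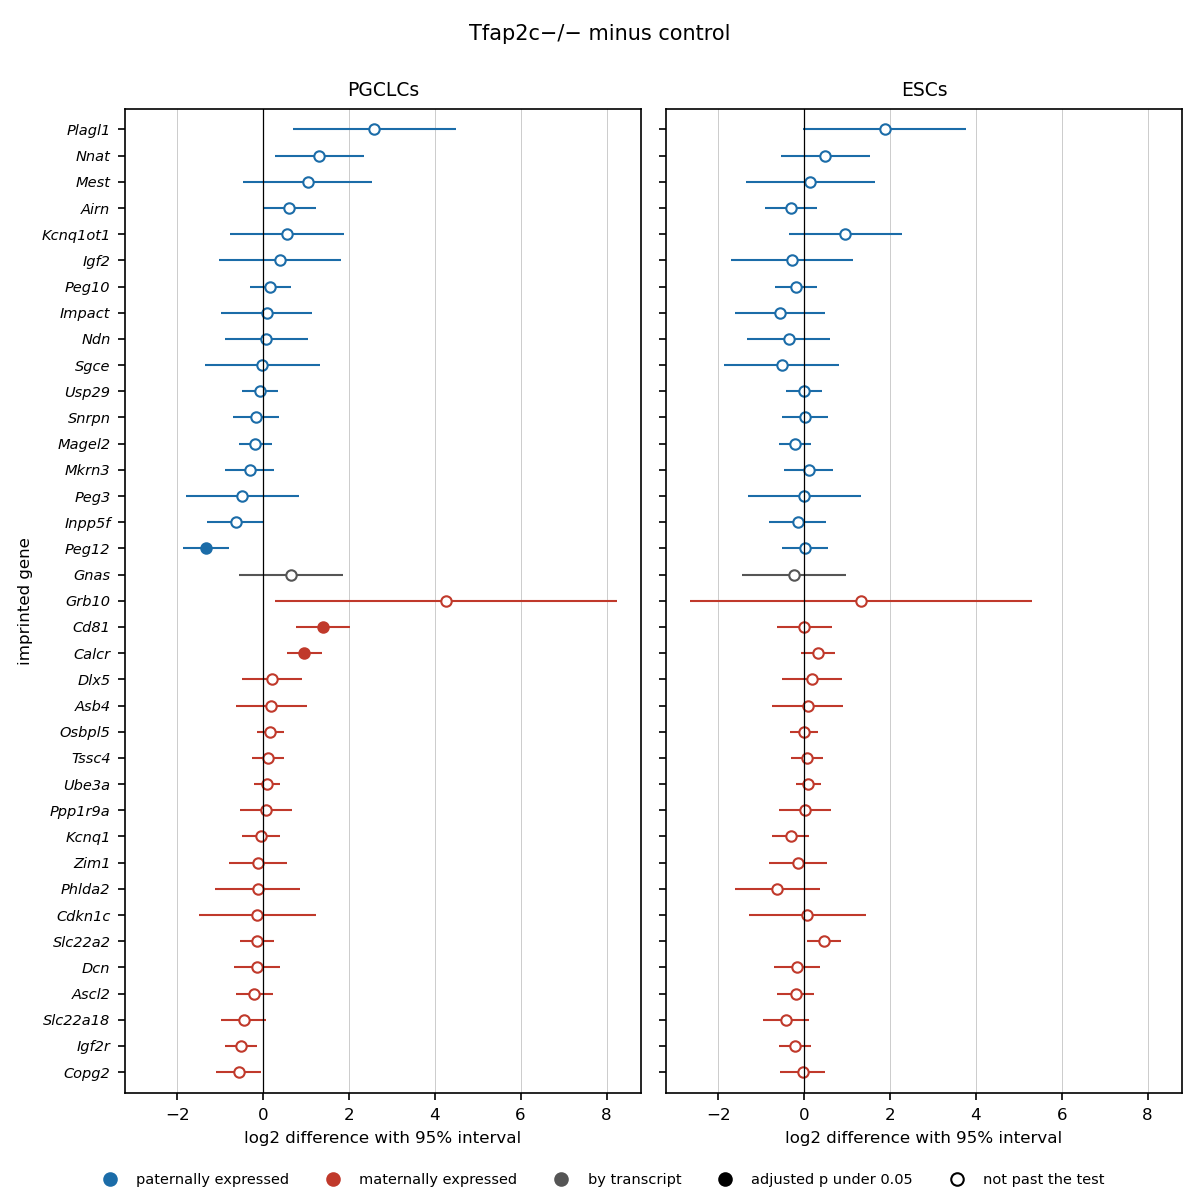
Log2 differences between Tfap2c−/− and control cells (horizontal axis, with 95% limma intervals) for the 37 imprinted genes in PGCLCs (left) and ESCs (right); blue is paternal, red maternal and grey Gnas, and filled points passed limma. Only Cd81, Calcr and Peg12 are filled, in PGCLCs, and the interval of Grb10 is the widest.

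In ESCs no imprinted gene passed limma between Tfap2c−/− and control cells, nor did any other gene (0% called). At an unadjusted p under 0.05 there were 455 of 18193 genes and 1 of the 37, Slc22a2, with a difference of 0.47 between low levels. The groups did not overlap in 2 higher and 7 lower genes of the 37, against 11.8% and 11% of all genes. The median of the imprinted genes was 0.01 and their differences ran from −0.62 (Phlda2) to 1.88 (Plagl1). By the fold rule of the methods, a difference above 1.5 with no test, Plagl1 was the only imprinted gene in ESCs, where 0.132% of all genes passed it, and Grb10 and Plagl1 were the 2 in PGCLCs (1.95% of all genes).

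No imprinted gene passed the test of the difference between the knockout effects in PGCLCs and ESCs, which 27 of all genes passed (0.148%). At an unadjusted p under 0.05 there were 5 of the 37 genes and 1639 of all genes. The effect of the knockout was greater in PGCLCs by 1.39 for Cd81 (SE 0.39, adjusted p = 0.316), 0.65 for Calcr (SE 0.24, adjusted p = 0.477) and 2.95 for Grb10 (SE 2.42, adjusted p = 0.806). For Peg12 it was −1.35 (SE 0.33, adjusted p = 0.246). Without control PGCLC sample 1 the Cd81 difference passed.

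Several imprinted genes varied more between the samples of a group than most genes did. In PGCLCs Cdkn1c, Gnas, Igf2 and Mest were more than 1 higher in sample 1 than in sample 2 in both genotypes, 4 of 37 genes (10.8%) against 145 of all genes (0.797%). None of the 37 was more than 1 higher in sample 2 in both genotypes, against 0.044% of all genes. Kcnq1ot1 and Peg3 were higher in sample 2 in both by less than 1. Gnas, the G protein alpha subunit gene, was at 9.11 and 7.90 in control and 9.72 and 8.61 in Tfap2c−/− PGCLCs, and at 8.27 and 8.80 in control and 8.81 and 7.79 in Tfap2c−/− ESCs. Within single groups the imprinted genes with samples more than 1 apart were 4 in control ESCs, 5 in Tfap2c−/− ESCs, 8 in control PGCLCs and 7 in Tfap2c−/− PGCLCs, or 10.8%, 13.5%, 21.6% and 18.9%, against 1.89%, 3.76%, 2.46% and 2.49% of all genes. These shares are a description without a test, and 18 of the 37 genes rest on 1 probe set. They were not matched for level. The shares of all genes include those near the background, where differences are compressed, while 21 of the 37 were above the median on all 8 arrays.

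Some markers of other cell types had the same order of samples. Sample 1 was above sample 2 in both PGCLC groups for 4 of 7 fibroblast markers, 3 of 6 mesoderm markers, 6 of 9 extraembryonic endoderm markers and 4 of 6 trophoblast markers, against 31.7% of all genes. This order was seen for fewer of the neural markers (2 of 7), pluripotency markers (2 of 8) and germ cell markers (0 of 6). Sample 2 was above sample 1 in both for 1 fibroblast marker (Postn), 1 mesoderm marker (Mixl1) and 4 of 6 germ cell markers. It was also above for 3 of 8 pluripotency markers, 2 of 7 neural markers and no trophoblast or extraembryonic endoderm marker, against 4386 of 18193 genes in all. The mean level of the 7 measured fibroblast markers was 3.36 and 2.82 in control and 3.68 and 2.997 in Tfap2c−/− PGCLCs, against 2.60 to 2.73 in ESCs, and 4 to 7 of the 7 were below the array median on each array. Col1a1 was at 5.06 and 3.13 in control and 5.27 and 4.30 in Tfap2c−/− PGCLCs, while Postn was at 2.69 and 3.28 in control and 2.27 and 2.38 in Tfap2c−/− PGCLCs and the defining marker Lum stayed between 2.07 and 2.61 on all arrays. The mean of the 6 mesoderm markers was 3.99 and 3.51 in control and 3.90 and 3.64 in Tfap2c−/− PGCLCs, against 3.13 to 3.32 in ESCs. Among them Hand2 was at 5.86 and 3.10 in control and 5.70 and 4.04 in Tfap2c−/− PGCLCs, and Mixl1 at 2.54 and 2.85 and at 2.40 and 2.71. The mean of the 9 extraembryonic endoderm markers was 3.54 and 3.16 in control and 3.63 and 3.17 in Tfap2c−/− PGCLCs, against 3.17 to 3.34 in ESCs, and 4 to 7 of them were below the array median on each array. Igf2, Cdkn1c and Mest, which many fetal mesenchymal cells express, were high in the same sample 1 of each genotype, and the part of such cells in their levels was not tested.

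**Figure D5:**
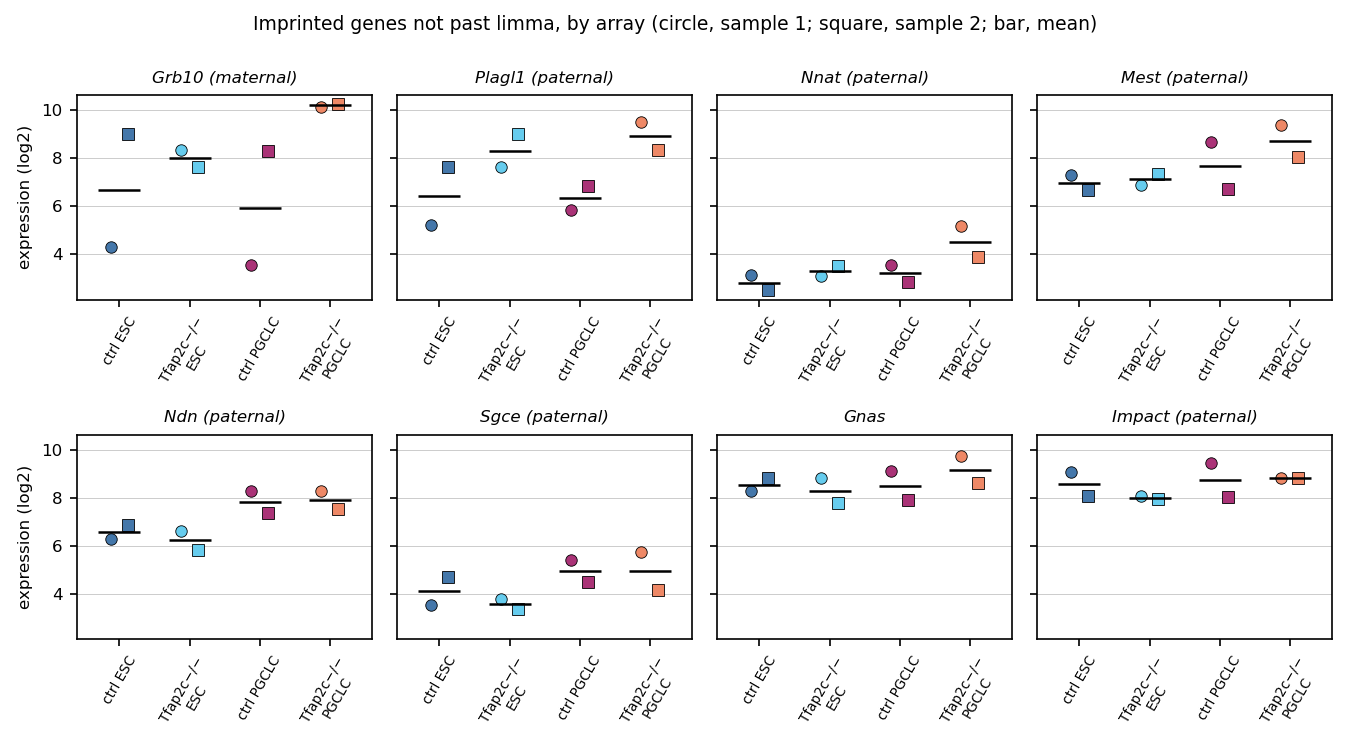
Levels (log2, vertical axis) of 8 imprinted genes that did not pass limma, in the 4 groups on the horizontal axis; circles are sample 1, squares sample 2 and bars group means. Grb10 shows control sample 1 at 4.31 and 3.56 and control sample 2 at 9.02 and 8.27 in ESCs and PGCLCs, and Mest and Gnas show sample 1 above sample 2 in both PGCLC groups.

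The genes that keep or reset imprints were read from a list of 17, of which 16 were measured. In Tfap2c−/− PGCLCs 2 of the 16 passed limma as higher than in control PGCLCs and 1 as lower, where 1.29% and 1.8% of all genes did. Zfp57, which binds methylated imprint control regions, was higher by 1.45 (SE 0.20, limma adjusted p = 0.0132) and Uhrf1, which brings the maintenance methylase to newly made DNA, by 1.41 (SE 0.18, adjusted p = 0.0103). Dppa3 (Stella), which protects imprints in the early embryo and is a germ cell marker, was lower, with a difference of −4.28 (SE 0.85, adjusted p = 0.0413). The values of Zfp57 were 5.67 and 5.65 in control and 5.64 and 5.65 in Tfap2c−/− ESCs, and 4.81 and 4.88 in control and 6.05 and 6.54 in Tfap2c−/− PGCLCs, lowest in control PGCLCs and highest in Tfap2c−/− PGCLCs. In control PGCLCs against control ESCs the same 3 genes passed in the opposite directions, Dppa3 at 4.05, Zfp57 at −0.82 and Uhrf1 at −1.67, with the control PGCLC samples again shared. Without control PGCLC sample 2 the knockout differences were 1.48, 1.205 and −4.03 for Zfp57, Uhrf1 and Dppa3 and none passed (adjusted p = 0.094, 0.0815 and 0.262), and of the control differences between cell types only that of Uhrf1 passed (−1.47, adjusted p = 0.0257; 0.171 for Zfp57 and 0.157 for Dppa3). With the replicate number as a block the Zfp57 control call was lost too (limma adjusted p = 0.0526). Of the 8 fits with 1 array left out, the knockout call held in 5 for Zfp57, 5 for Uhrf1 and 4 for Dppa3. The control call between cell types held in 2 for Zfp57, 8 for Uhrf1 and 3 for Dppa3. Among the genes of the list that passed in neither of these comparisons, Dnmt3l was at 6.51 and 4.01 in control and 8.96 and 7.99 in Tfap2c−/− PGCLCs. Dnmt3b was at 8.28 and 7.88 in control and 9.53 and 9.27 in Tfap2c−/− PGCLCs, and Tet2 at 7.52 and 7.21 and at 8.22 and 8.86. Each was higher in the knockout without overlap, as were Dnmt3a, Tet1, Ctcf, Zfp445 and Ehmt2, while Dnmt1, Setdb1 and Smchd1 were lower without overlap. Of all genes 19.5% were higher and 27.9% lower without overlap, so such separation is common with 2 samples a group. From Tfap2c−/− ESCs to Tfap2c−/− PGCLCs, Ehmt2 alone of the list passed, higher by 1.05 (limma adjusted p = 0.0285), where 1.35% of all genes passed as higher. That call was lost whichever single array was left out, with differences of 0.88 to 1.22. In ESCs none of the 16 passed between genotypes. How far these genes bear on the levels of the imprinted genes was not tested.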

How the data were processed

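Total RNA of the 8 samples was hybridised to Affymetrix mouse expression arrays. The deposited series matrix holds log2 expression values that the authors had background-corrected, normalized across arrays and summarised per probe set. RMA is given as the procedure in the study's methods, whereas the processing notes of the submitters list GCRMA with no version. GCRMA corrects for probe sequence where RMA does not, so which of them set the lowest levels is unknown. Depth does not apply to arrays, and their number limits the precision. No further normalization was applied.

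Of 45101 probe sets, 34945 name 1 gene in the platform annotation, 932 name several, 9160 are not listed and 64 are controls. Symbols were updated through the gene ID in RefSeq, which matched 34741. The probe set that was brightest on average across the arrays stood for its gene. All 8 arrays entered 1 limma fit (version 3.58.1, R 4.3.3) of the 4 group means, with 4 residual degrees of freedom, and eBayes with a trend added 3.67 prior degrees of freedom. Tests were two-sided and p was adjusted by Benjamini-Hochberg over 18193 genes, with a threshold of 0.05. The comparisons were Tfap2c−/− against control in each cell type, the difference of these effects, and PGCLCs against ESCs in each genotype. The script was tested on simulated data. Tables and plots were made in Python 3.11.15 with pandas 2.3.3, NumPy 2.4.6 and Matplotlib 3.10.9.

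The genes, lists and rules were chosen with earlier results of these data known, and no pattern among them is independent support. Given array by array were genes past limma in any comparison, genes with a knockout difference above 1.5, genes with samples of a group more than 3 apart, and the 3 highest of each parental class. Ndn, Phlda2, Kcnq1ot1, Nnat, Gnas and the genes printed with single values were named after their values were seen. Promoters came from RefSeq (GRCm38.p6). Impact is not among the sequences used here. Alternatives were the mean of the probe sets, leaving out _s_at and _x_at probe sets, eBayes without trend, leaving out dim genes, shifting arrays to 1 median, quantile normalization, only the arrays compared, the replicate number as a block, the fold rule, and leaving out each array.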

Additional observations from a re-analysis of the deposited data

How the results depend on the processing

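The counts of imprinted genes that passed rest on 2 samples a group. Between Tfap2c−/− and control PGCLCs the count was 3. It was 1 with dim genes left out, since the means of Calcr and Peg12 over the arrays fell below the limit, 0 with only the arrays compared, and 0 to 2 when single arrays were left out (0 without control ESC sample 1, control ESC sample 2, control PGCLC sample 2 or Tfap2c−/− PGCLC sample 2, and 1 without Tfap2c−/− PGCLC sample 1). In ESCs the count of 0 became 1 under the fold rule. For the difference of effects the count of 0 became 1 under the fold rule (Grb10) and was 0 to 1 when single arrays were left out, the 1 being Cd81 without control PGCLC sample 1. For control PGCLCs against control ESCs the count was 6, and 1 to 8 when single arrays were left out, with 1 and 3 without control ESC sample 1 or 2 and 3 without control PGCLC sample 1. For Tfap2c−/− PGCLCs against ESCs the count was 3, 1 with only the arrays compared, 6 under the fold rule and 0 to 3 when single arrays were left out, the 0 without Tfap2c−/− PGCLC sample 1. A lone sample left in a group was assumed to vary like the other groups. Apart from the settings that left out arrays or fitted only the arrays compared, among the imprinted genes of the list the mean of the probe sets ended the calls of Peg3 in controls (1.32, adjusted p = 0.0578) and Cd81 in the knockout (1.40, adjusted p = 0.0503), and eBayes without trend ended the latter too (adjusted p = 0.056). Neither shift of the arrays to 1 median nor quantile normalization changed a count, and no call of an imprinted gene of the list changed direction. Of the knockout differences that did not pass, that of Impact in PGCLCs ran from −0.62 to 0.78 when single arrays were left out, and in ESCs those of Grb10 from −1.03 to 3.67, Peg3 from −0.79 to 0.81, Mest from −0.16 to 0.46 and Cd81 from −0.001 to 0.016. With the mean of the probe sets the ESC differences of Peg3 and Ube3a turned to −0.078 and −0.078. For the other changes the cause was not tested.

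The replicate numbers were not taken to pair the samples. The deviations of same-numbered samples from their group means correlated between −0.333 (control and Tfap2c−/− ESCs) and 0.392 (control and Tfap2c−/− PGCLCs) over 18193 genes, and the labels tie no number to a line; same-numbered PGCLC samples of the 2 genotypes did deviate together. With the replicate number as a block the counts were 3, 0, 0, 7 and 5 in the order above, and it ended no call of an imprinted gene of the list. With the numbers crossed, a pairing chosen after seeing the data, they were 3, 0, 0, 10 and 9. Calcr on all arrays and Peg12 in ESCs lie near the array background, where differences are compressed.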

Other observations

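A list of 29 other imprinted genes, of which 26 were measured, held 2 that were higher and 1 that was lower in Tfap2c−/− PGCLCs than in control PGCLCs, where 1.29% and 1.8% of all genes were. Cobl, an actin nucleator gene that neighbours Grb10 and is maternally expressed, was at 8.08 and 7.87 in control and 8.07 and 7.94 in Tfap2c−/− ESCs, and 5.30 and 5.06 in control and 7.43 and 7.81 in Tfap2c−/− PGCLCs. Control PGCLCs were the only low group, with a difference of 2.44 between genotypes (SE 0.19, limma adjusted p = 0.0016) and of −2.79 from control ESCs (adjusted p = 0.000658). Its knockout effect differed between cell types by 2.40 (SE 0.26, adjusted p = 0.0242). Without control PGCLC sample 2 the first 2 held, at 2.31 and −2.67 (adjusted p = 0.0179 and 0.0085), and the last did not (2.28, adjusted p = 0.129), which passed without control PGCLC sample 1 alone of the 8 arrays left out and was 1.47 with the mean of the probe sets (adjusted p = 0.0634). Ddc, which encodes the decarboxylase that makes dopamine and lies on the other side of Grb10, was at 6.92 and 6.26 in control and 8.06 and 7.78 in Tfap2c−/− PGCLCs, a difference of 1.33 (SE 0.28, adjusted p = 0.049). Of the 8 arrays left out in turn, the call held without control PGCLC sample 1 alone (1.66), and without sample 2 the difference was 1.00 (adjusted p = 0.293); with the mean of the probe sets it was 0.72 (adjusted p = 0.109). Control sample 1 was above control sample 2 for both genes, by 0.21 in ESCs and 0.24 in PGCLCs for Cobl and by 0.61 and 0.66 for Ddc, whereas for Grb10 it was below.

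Sfmbt2, a paternally expressed Polycomb-related gene of trophoblast, was at 5.56 and 5.82 in control and 5.95 and 6.26 in Tfap2c−/− ESCs, and 8.63 and 9.20 in control and 7.31 and 6.85 in Tfap2c−/− PGCLCs. In controls PGCLCs were higher than ESCs by 3.23 (SE 0.26, limma adjusted p = 0.00107) and lower in Tfap2c−/− PGCLCs than in control PGCLCs, with a difference of −1.83 (SE 0.26, adjusted p = 0.0136), the same order of groups as Peg12. Without control PGCLC sample 2 they were 2.94 (adjusted p = 0.0101) and −1.54 (adjusted p = 0.102), and the latter call was also lost without Tfap2c−/− PGCLC sample 2 (−1.60, adjusted p = 0.0987). Tnfrsf22, a decoy receptor gene between Phlda2 and Osbpl5, was at 4.42 and 4.92 in control and 4.66 and 3.37 in Tfap2c−/− ESCs and 2.38 and 2.23 in control and 2.73 and 2.30 in Tfap2c−/− PGCLCs, a difference of −2.37 in controls (adjusted p = 0.0137) that no longer passed without any 1 of the 4 control arrays (−2.62 to −2.12, adjusted p = 0.0859 without control PGCLC sample 2). In ESCs none of the 26 passed between genotypes. Slc38a4, an amino acid transporter gene expressed from the paternal copy, was at 5.15 and 7.61 in control and 5.47 and 2.30 in Tfap2c−/− ESCs, and at 9.58 and 9.51 in control and 8.67 and 9.14 in Tfap2c−/− PGCLCs, without passing the test. Tfap2c−/− ESC sample 2 was the lowest for Slc38a4 and Tnfrsf22 among the ESCs, as it was for Phlda2 and Slc22a18.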
